A study of Mus musculus with 16 samples.

Results

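Common gamma chain cytokine signaling was followed through 10 genes of the count table: the receptor chains Il2rb, Il2rg, Il4ra, Il21r and Il15ra, the kinases Jak1 and Jak3, the transcription factors Stat5a and Stat5b, and the inhibitor Cish. They were taken by gene name, 1 row each, out of 55450 genes, of which 29671 had at least 1 count. All 10 passed the filter on low counts in each comparison. Bulk stranded total RNA sequencing was performed on CD4+ and CD8+ tumor-infiltrating T lymphocytes (TILs) of WT and Sirt2-/- mice bearing s.c. melanomas grown from the mouse line B16F10. Each of the 4 groups (CD4+ WT, CD4+ Sirt2-/-, CD8+ WT and CD8+ Sirt2-/-) had 4 libraries, 16 in all, numbered as replicates 1 to 4 in the labels. Sirt2-/- mice (labelled Sirt2KO, strain B6.129-Sirt2tm1.1Fwa/J) lack the deacetylase gene Sirt2 in the whole animal and not only in T cells, WT mice were C57BL/6J, and both were used at 7 to 8 weeks of age and matched for sex. The labels name no treatment besides the tumor. TILs of s.c. tumors were, per the study's methods, enriched on a density gradient and with CD3ε beads. How CD4+ and CD8+ cells were then separated for sequencing, and whether a library holds cells of 1 mouse or of several, is not given in the sources used here, so p-values measure only the spread between these libraries.

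IL-2, IL-4, IL-7, IL-9, IL-15 and IL-21 all signal through receptors that contain the common gamma chain, which Il2rg encodes, together with a chain that sets the cytokine (Il4ra for IL-4, Il21r for IL-21, Il7r for IL-7) or, for IL-2 and IL-15, the shared beta chain Il2rb with the high-affinity chains Il2ra and Il15ra. JAK3 is bound by the common gamma chain and JAK1 by the partner chain. The active pair phosphorylates STAT proteins that differ with the cytokine, among them STAT5A and STAT5B. In T cells the pathway maintains survival, growth and memory, Treg cells depend on IL-2 through IL2RA and STAT5, and CISH is a STAT5-induced member of the SOCS family that dampens cytokine and TCR signals.

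Cish is a textbook target of STAT5, so the sequence at its start site is shown here. The stretch comes from RefSeq (GRCm38.p6, chr9:107296559-107296683, plus strand) and holds 100 bases before the annotated transcription start and 25 from it on. Capitals mark the 2 matches of TTCNNNGAA, the spaced palindrome that STAT dimers bind, which is its own reverse complement and was therefore searched on both strands at once.
Cish: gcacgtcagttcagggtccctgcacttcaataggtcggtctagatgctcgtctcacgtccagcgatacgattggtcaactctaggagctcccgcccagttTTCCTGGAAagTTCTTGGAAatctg
The first base of the RefSeq start site counts as position 1, and the matches begin at positions 1 and 12. The GENCODE gene whose counts are used here begins further upstream, at chr9:107296026, so these positions hold for the RefSeq start only. Of the 9 members with a promoter in the RefSeq table (250 bases before the start to 50 after it), 1 held the motif, namely Cish, against 9.55% of the 27025 genes there and 8.3% of all 32851 promoters. No promoter of Il2rb was held in that table. A match of letters is a description of the sequence and not a measured binding site.

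Total counts on genes ranged from 28000949 to 62407851 per library. Sirt2, the targeted gene, had 40.7 to 75.6 CPM (counts scaled to library size and by TMM, edgeR's correction for composition) in CD4+ WT libraries and 33.4 to 51.5 in CD8+ WT libraries, against 0 to 12.2 and 6.52 to 10.3 CPM in the Sirt2-/- libraries of the same cell type. No Sirt2 value of a Sirt2-/- library reached a WT value. Cd4 was at 384 to 620 CPM in the libraries labelled CD4 and at 0 to 4.93 CPM in those labelled CD8, and Cd8a and Cd8b1 together were at 14.0 to 74.9 and 1460 to 2050 CPM. Genes with at least 1 count numbered 8169 in CD4+ Sirt2-/- replicate 4, 12587 in CD4+ WT replicate 1 and 14411 in CD8+ WT replicate 1, against 17730 to 22138 in the other 13 libraries. Among abundant genes (mean of 100 counts or more in the remaining libraries of that cell type), these libraries had no count for 34.9%, 7.26% and 1.57%, and the remaining 13 for at most 0.309%. Summed melanoma markers (Pmel, Tyr, Tyrp1, Dct, Mlana and Mitf) were at 96.9 CPM in CD4+ WT replicate 1. They were at 81.5 CPM in CD4+ Sirt2-/- replicate 4, where 4 of these genes had no count. Every other library had 3.57 to 15.6 CPM. Results that rest on the libraries with few genes are given with and without them.

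Levels were compared between genes only per length, as CPM per kilobase of annotated exons, averaged over the 4 libraries of a group. In CD4+ WT TILs Il2rb led with 237 ± 20.2 (SD, n = 4), followed by Jak1 with 145 ± 22.5. Stat5b (53.0 ± 8.79), Cish (51.7 ± 12.5) and Il4ra (44.6 ± 6.47) came next and lay within 1 SD of each other. Il21r (28.1 ± 6.33), Il2rg (21.3 ± 4.35), Jak3 (20.2 ± 8.40) and Stat5a (11.5 ± 2.30) formed a run in which each gene lay within the summed SDs of its neighbor. Il15ra was far below the others at 1.77 ± 0.525. In CD8+ WT TILs Il2rb (212 ± 35.0) and Jak1 (159 ± 6.22) led again, Il4ra (36.3 ± 3), Il21r (36.0 ± 3.79), Cish (32.5 ± 1.63) and Il2rg (30.5 ± 3.27) lay close together, and Stat5b (22.0 ± 3.38), Jak3 (16.5 ± 2.27), Stat5a (6.94 ± 0.935) and Il15ra (4.04 ± 0.769) followed. By these counts the mRNA of the shared beta chain stood well above that of the common gamma chain per length in both cell types. Stat5b likewise stood above Stat5a. The exons of Il2rg share 728 of their 2387 bases on the same strand with Gm20489, for which 1 count was listed. How reads on both genes were counted is not given in the sources used here, so the level of Il2rg may be understated.

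**Figure D1:**
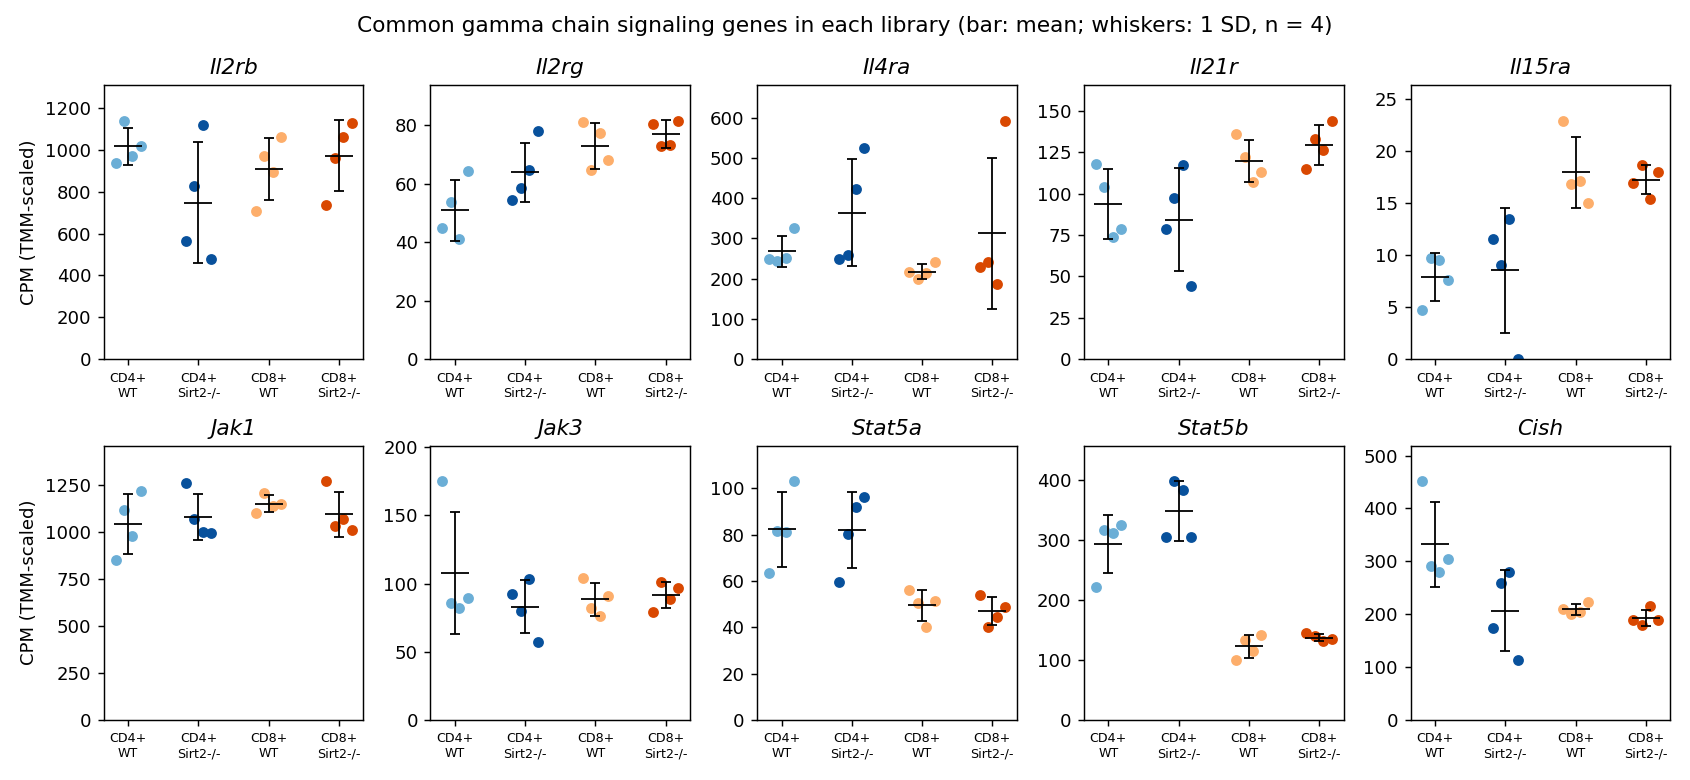
TMM-scaled CPM of the 10 members (vertical axes, from 0) in each of the 16 libraries, by group; points are libraries from replicate 1 at the left to 4 at the right, black bars are means and whiskers 1 SD (n = 4). Stat5b and Stat5a lie lower in every CD8+ library than in every CD4+ library, whereas WT and Sirt2-/- points overlap for all 10 genes in both cell types.

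The first question was whether loss of Sirt2 went with a change of these genes. In CD4+ TILs none of the 10 members was called by edgeR's quasi-likelihood test at a Benjamini-Hochberg adjusted p below 0.05 over all genes, where 0% of the 15070 genes tested were called. DESeq2 and limma-voom called 0 of the 10 as well, with 7 and 4 calls over all genes, and 1 member (Cish) and 190 genes in all had an unadjusted p below 0.05. The WT and Sirt2-/- values of the 10 members overlapped in every case, against 3.13% of all genes whose groups did not overlap. The members' log2 fold changes had a median of 0.02, beside −0.11 over all genes tested. Sirt2, the deleted gene, was itself not called by edgeR in CD4+ TILs (log2 fold change −2.6, SE 1.26, unadjusted p = 0.0654), although its groups did not overlap. The lack of calls in this comparison therefore says little about the members.

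Among the receptor chains, Il2rb, the beta chain of the IL-2 and IL-15 receptors (chr15:78479256-78495271, minus strand), was at 936, 1140, 973 and 1020 CPM in CD4+ WT replicates 1 to 4 and at 566, 829, 1120 and 478 CPM in the Sirt2-/- replicates. The WT values were close together, whereas the Sirt2-/- values ran from below all WT values to near the highest. The log2 fold change was −0.43 (SE 0.25, 95% interval −1 to 0.13, edgeR adjusted p = 1), and −0.26 without Sirt2-/- replicate 4. Il4ra, the alpha chain of the IL-4 receptor (chr7:125552120-125579474, plus strand), was at 248, 245, 252 and 326 CPM in WT and at 250, 258, 424 and 526 CPM in Sirt2-/- CD4+ TILs. Sirt2-/- replicates 3 and 4 lay above every WT library and replicates 1 and 2 among them, and the log2 fold change was 0.44 (SE 0.25, edgeR adjusted p = 1). Il2rg, Il21r and Il15ra had log2 fold changes of 0.33 (SE 0.25), −0.14 (SE 0.30) and 0.12 (SE 1.47). Il15ra had no count in Sirt2-/- replicate 4, which allows up to 3 counts by counting error alone, against 141 to 598 counts in the other CD4+ libraries.

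The kinases Jak1 and Jak3 had log2 fold changes of 0.05 (SE 0.17) and −0.37 (SE 0.29) in CD4+ TILs. Jak3, which binds the common gamma chain, was at 175 CPM in WT replicate 1 and at 82.2 to 89.4 CPM in the other WT libraries, so that 1 library set the WT mean, and the log2 fold change was −0.05 without it. Stat5a and Stat5b had log2 fold changes of −0.01 (SE 0.23) and 0.25 (SE 0.18).

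Cish was the member with the smallest p in this comparison. It was at 451, 291, 280 and 305 CPM in CD4+ WT replicates 1 to 4 and at 174, 259, 280 and 114 CPM in CD4+ Sirt2-/- replicates 1 to 4. The highest Sirt2-/- value equalled the lowest WT value at the precision given, and the libraries at the extremes, WT replicate 1 and Sirt2-/- replicate 4, were those with few genes detected. The log2 fold change was −0.67 (SE 0.28, 95% interval −1.30 to −0.04, unadjusted p = 0.0399, edgeR adjusted p = 1), and −0.295 without these libraries (edgeR adjusted p = 0.99). Over all alternatives the adjusted p of Cish ranged from 0.633 to 1. Summed Treg markers (Foxp3, Ikzf2, Ctla4 and Tnfrsf18, none at 0) were at 1230 to 2200 CPM in CD4+ WT and 959 to 1980 CPM in CD4+ Sirt2-/- libraries. In Sirt2-/- replicate 4 these genes went in different directions. There Ctla4 (668 CPM) and Tnfrsf18 (404 CPM) lay above the WT ranges of 157 to 322 and 290 to 367 CPM. Ikzf2 (375 CPM) lay below the WT range of 427 to 670 CPM, and Foxp3 (393 CPM) inside that of 359 to 923 CPM. Summed gamma delta T cell markers (Trdc and Tcrg-C1) were at 1.26 to 18.5 CPM in CD4+ WT and 35.8 to 56.2 CPM in CD4+ Sirt2-/- libraries, without overlap. Trdc separated the genotypes (1.26 to 9.24 and 23.1 to 49 CPM), whereas Tcrg-C1 overlapped (0 to 9.22 and 0.107 to 22.9 CPM). Of the CD8 genes, Cd8a was at 0.0333 to 9.24 CPM in CD4+ WT and 10.2 to 33.4 CPM in CD4+ Sirt2-/- libraries, without overlap. Cd8b1 overlapped (11.5 to 15.6 and 12.1 to 60.8 CPM). The part of Treg, gamma delta T, CD8+ and melanoma cells in the values of Cish was not tested. In bulk RNA, fewer cells of a type and less RNA per cell cannot be told apart.

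In CD8+ TILs 0 of the 10 members were called by edgeR, against 0.00654% of 15302 genes, which is the single gene Sirt2 (log2 fold change −2.22, SE 0.21, adjusted p = 0.00663). No member had an unadjusted p below 0.05, where 579 genes in all did, and DESeq2 and limma-voom called 0 members and 28 and 5 genes in all. No member had WT and Sirt2-/- values apart from each other, against 2.95% of all genes. The members stayed close between the genotypes, with log2 fold changes from −0.12 for Cish (SE 0.09, 95% interval −0.32 to 0.08) to 0.17 for Stat5b (SE 0.11, 95% interval −0.08 to 0.41), except Il4ra. For 9 of the 10 members the 95% interval lay within −0.44 and 0.44 on the log2 scale.

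Il4ra was at 216, 198, 215 and 242 CPM in CD8+ WT and at 230, 242, 186 and 593 CPM in CD8+ Sirt2-/- TILs. One library, Sirt2-/- replicate 4, stood above the rest, and the remaining values of both genotypes were intermixed. The log2 fold change of 0.52 (SE 0.31, edgeR adjusted p = 0.986) became 0.005 without that library. The same library had the highest Il2ra of the CD8+ TILs (152 CPM) and 1320 CPM of Gzmb, the granzyme B gene, against 122 to 621 CPM in the other CD8+ libraries. It also had the highest sums of myeloid (47.1 against 10.2 to 32.5 CPM) and NK cell markers (13.7 against 2.3 to 9.76 CPM) of the CD8+ libraries. The same held for gamma delta T cell (38.3 against 14.7 to 30.9 CPM) and melanoma markers (15.6 against 3.57 to 11.3 CPM), and for Col1a1 (21.6 CPM) and Col3a1 (18.7 CPM). Not every gene was highest there: Tcrg-C1 was at 15.9 CPM against 17.2 CPM in CD8+ WT replicate 4. Apoe, a myeloid marker, was at 14.8 CPM against 17.8 CPM in CD8+ Sirt2-/- replicate 2. The B cell (2.09 CPM) and dendritic cell (4.15 CPM) sums were not the highest. The part of these cells in the Il4ra value was not tested. The Gzmb values were not chosen by the rule for named genes and were picked after they were seen.

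Whether the genotype difference itself differed between CD8+ and CD4+ TILs was tested with an interaction term over all 16 libraries. None of the 10 members was called by edgeR (0% of 17270 genes), no member had an unadjusted p below 0.05, where 342 genes in all did, and DESeq2 called 2 genes and limma-voom 0, none of them a member. The interaction was 0.57 for Cish (SE 0.31, unadjusted p = 0.0867) and 0.54 for Il2rb (SE 0.31, unadjusted p = 0.0976) on the log2 scale, both with an adjusted p of 1. The 95% intervals, −0.09 to 1.22 and −0.11 to 1.19, both hold 0 and reach past 1 on the log2 scale.

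**Figure D2:**
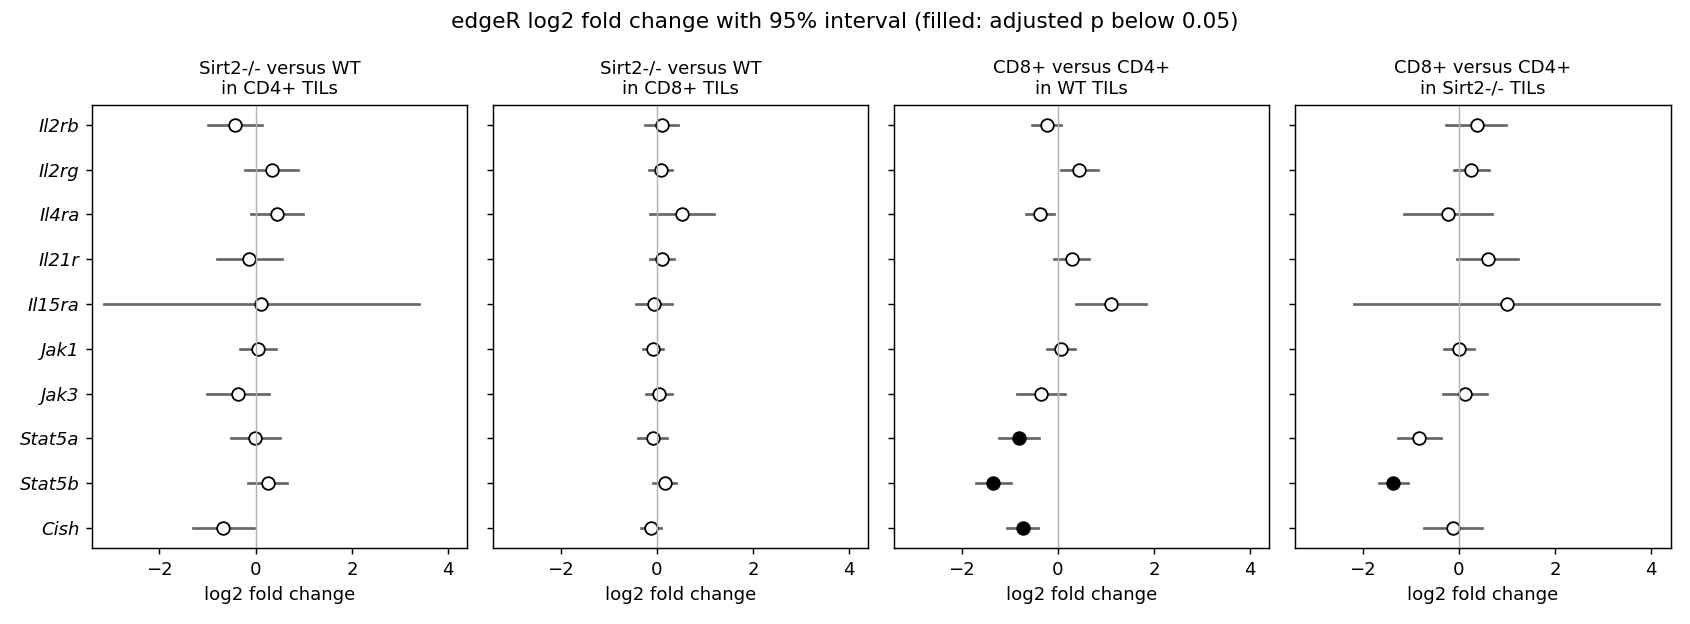
Log2 fold change of each member (horizontal axis) with its 95% interval from edgeR's quasi-likelihood fit in the 4 comparisons of 4 against 4 libraries; filled points have an adjusted p below 0.05. All points of the genotype comparisons are open, and Stat5b is filled in both comparisons of CD8+ with CD4+ TILs at −1.34 and −1.36.

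The second question was how the pathway differed between CD8+ and CD4+ TILs. The comparisons in WT and in Sirt2-/- mice use separate libraries, while each shares its libraries with the genotype comparisons above. In WT TILs 3 of 10 members were called, all lower in CD8+ cells: Stat5b, Stat5a and Cish. Over all 14892 genes tested 11.9% were called, 4.89% higher and 6.96% lower in CD8+ TILs. The values of 6 of 10 members did not overlap between the cell types, against 22.7% of all genes. In Sirt2-/- TILs Stat5b alone was called (1 of 10, lower in CD8+ cells), where 2.24% of 15787 genes were called, 0.918% higher and 1.32% lower. There the values of 3 of 10 members did not overlap (Stat5a, Stat5b and Il15ra), against 22.2% of all genes.

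Stat5b (chr11:100780731-100850724, minus strand), one of the 2 STAT5 genes and the more abundant of them here, showed the largest of these differences relative to its error. It was at 221, 316, 311 and 325 CPM in CD4+ WT replicates 1 to 4 and at 100, 133, 114 and 142 CPM in CD8+ WT replicates 1 to 4. In Sirt2-/- TILs it was at 305, 397, 383 and 305 CPM in CD4+ and at 144, 139, 131 and 134 CPM in CD8+ cells. Every CD8+ library lay below every CD4+ library in both genotypes, and the highest CD8+ value was still well under the lowest CD4+ value. The level was 2.53-fold lower in CD8+ than in CD4+ TILs of WT mice (log2 fold change −1.34, SE 0.17, edgeR adjusted p = 0.000525) and 2.56-fold lower in Sirt2-/- mice (−1.36, SE 0.13, edgeR adjusted p = 0.00229). It was called under all 16 alternatives in each genotype. The genotype difference of this contrast was −0.08 (SE 0.21, 95% interval −0.53 to 0.37).

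Stat5a (chr11:100859351-100885169, plus strand), the paralog that lies 8.6 kb from Stat5b on the opposite strand, was at 63.3, 81.7, 81.3 and 103 CPM in CD4+ WT replicates and at 56.0, 50.3, 40.2 and 51.5 CPM in CD8+ WT replicates. In Sirt2-/- TILs the values were 59.6, 80.1, 92.0 and 96.1 CPM in CD4+ and 54.1, 40.1, 44.3 and 48.9 CPM in CD8+ cells. All CD8+ values were again below all CD4+ values, with a narrower gap than for Stat5b. In WT the level was 1.75-fold lower in CD8+ TILs (−0.81, SE 0.19, edgeR adjusted p = 0.0162), a call that was lost when CD4+ replicate 4, CD8+ replicate 2 or CD8+ replicate 3 was left out (adjusted p = 0.0573, 0.0646 and 0.0805) and with the replicate number as a block (adjusted p = 0.0515). In Sirt2-/- the difference was alike in size and not called (−0.82, SE 0.20, edgeR adjusted p = 0.0839), and was called without CD4+ replicate 4 (−0.75, adjusted p = 0.00455). The exons of Stat5a share 72 bases with Stat3 on the opposite strand, and the setting of strand in the counting is not given in the sources used here. Stat3 itself was at 278 to 495 CPM in CD4+ and 227 to 339 CPM in CD8+ libraries.

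Cish (chr9:107296026-107302784, plus strand) differed between the cell types in WT mice. Its CD4+ WT values of 280 to 451 CPM lay above the CD8+ WT values of 209, 200, 203 and 223 CPM without overlap, and the CD8+ values were tightly grouped. The level was 1.66-fold lower in CD8+ WT TILs (−0.73, SE 0.15, edgeR adjusted p = 0.00764), and the log2 fold change was −0.49 without CD4+ WT replicate 1, the highest library (adjusted p = 0.00756). The call was lost without CD8+ replicate 2 or 3 (adjusted p = 0.0558 and 0.0567) and in a model of all 16 libraries (adjusted p = 0.107). In Sirt2-/- TILs the CD8+ values of 189, 179, 215 and 188 CPM lay inside the CD4+ range of 114 to 280 CPM, and the log2 fold change was −0.12 (SE 0.27, edgeR adjusted p = 0.998), or −0.34 without CD4+ replicate 4 (adjusted p = 0.129). With limma-voom and quality weights it was −0.39 (adjusted p = 0.0307), where 4481 of 15787 genes were called. That Cish passed the test in WT and not in Sirt2-/- TILs does not show a difference between the genotypes, which the interaction above tested.

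Il15ra, the chain that binds and presents IL-15 (chr2:11705290-11734317, plus strand), was the one member with a larger level in CD8+ cells by about 2-fold. It was at 4.69, 9.72, 9.52 and 7.57 CPM in CD4+ WT and at 22.9, 16.8, 17.1 and 15 CPM in CD8+ WT libraries. In Sirt2-/- mice it was at 11.5, 9.03, 13.5 and 0 CPM in CD4+ and at 16.9, 18.6, 15.4 and 18.0 CPM in CD8+ libraries. The lowest CD8+ value was above the highest CD4+ value in both genotypes. In WT the fold change was 2.16 (log2 1.11, SE 0.33) with an edgeR adjusted p of 0.0527, which became 0.0159 without CD4+ WT replicate 1 and ranged from 0.00699 to 0.698 over the alternatives. In Sirt2-/- the log2 fold change was 1 (SE 1.39, edgeR adjusted p = 0.998), and 0.57 (adjusted p = 0.037) without CD4+ replicate 4, the library at 0.

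The remaining receptor chains and the kinases were not called by edgeR in either genotype with all libraries in. By limma-voom, Il2rg (adjusted p = 0.0159 in WT and 0.02 in Sirt2-/-), Il21r (0.0205 and 0.0471) and, in WT, Il4ra (0.015) were called. That method called 5504 of 14892 genes in WT and 4481 of 15787 genes in Sirt2-/- TILs. Il2rg, the common gamma chain (chrX:101264378-101268255, minus strand), was at 44.7, 53.7, 41.0 and 64.3 CPM in CD4+ WT and at 81.3, 64.6, 77.5 and 68.1 CPM in CD8+ WT libraries. The CD8+ values all lay above the CD4+ values, by a small margin at the closest pair (log2 fold change 0.45, SE 0.18, edgeR adjusted p = 0.143). In Sirt2-/- TILs, at 54.5 to 77.9 and 72.9 to 81.6 CPM, the groups overlapped (0.26, SE 0.16, adjusted p = 0.677), and without CD4+ replicate 4 the difference was 0.35 (adjusted p = 0.0277). Il4ra was lower in all 4 CD8+ than in all 4 CD4+ WT libraries, at 198 to 242 against 245 to 326 CPM (−0.37, SE 0.13, edgeR adjusted p = 0.101), and the groups overlapped in Sirt2-/- TILs (−0.23, SE 0.40). Il21r, the chain for IL-21 (chr7:125603429-125633570, plus strand, 24.0 kb from Il4ra), had 73.5 to 118 CPM in CD4+ and 107 to 136 CPM in CD8+ WT libraries, and 44.2 to 117 and 115 to 144 CPM in Sirt2-/- libraries. Its log2 fold changes were 0.29 (SE 0.16) and 0.60 (SE 0.28).

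Il2rb overlapped between the cell types, at 709 to 1060 CPM in CD8+ against 936 to 1140 CPM in CD4+ WT libraries (−0.23, SE 0.14, 95% interval −0.53 to 0.07). Its mean in Sirt2-/- TILs was 974 ± 172 CPM in CD8+ and 748 ± 288 CPM in CD4+ cells (SD, n = 4), with overlapping values and a log2 fold change of the opposite sign (0.37, SE 0.27, 95% interval −0.26 to 0.99, edgeR adjusted p = 0.796). With 1 library left out this fold change ranged from 0.184 to 0.623. The lowest CD4+ Sirt2-/- value, 478 CPM, came from replicate 4, a library with few genes detected. Jak1, the kinase of the partner chains (chr4:101152367-101265282, minus strand), was the steadiest member, at 853 to 1270 CPM over all 16 libraries, with log2 fold changes of 0.07 (SE 0.13) in WT and 0.01 (SE 0.14) in Sirt2-/- TILs between CD8+ and CD4+ cells. Jak3 (chr8:71676296-71690575, plus strand) had log2 fold changes of −0.35 (SE 0.23) and 0.12 (SE 0.20). Its exons share 404 bases on the same strand with Insl3, for which 509 counts were listed over the 16 libraries against 61282 for Jak3. How reads on both genes were counted is not given in the sources used here. The Insl3 counts therefore do not bound the effect of the overlap on the level of Jak3.

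Leaving out the 3 libraries with under 15000 genes detected, 4 of 10 members were called in WT TILs (Il15ra, Stat5a, Stat5b and Cish), where 28% of 15694 genes were called, and 4 of 10 in Sirt2-/- TILs (Il2rg, Il15ra, Stat5a and Stat5b), where 25.4% of 16703 genes were. With so small a list, these counts are near the share over all genes. In the genotype comparisons 0 of 10 members were called without them, where 0.0374% of 16034 genes in CD4+ and 0.0439% of 15943 genes in CD8+ TILs were. Summed Treg markers moved with the cell type, at 959 to 2200 CPM in CD4+ and 124 to 259 CPM in CD8+ libraries with none of the 4 genes at 0, and Foxp3, the defining one, was at 306 to 923 and 0.968 to 6.77 CPM. Of the 5 stromal markers Pecam1 made up most of the sum (56.4 to 164 CPM in CD4+ and 36.2 to 78.4 CPM in CD8+ libraries, overlapping), while Col1a1, Col1a2, Col3a1 and Cdh5 were at 0 to 25.2 CPM in CD4+ and 0 to 21.6 CPM in CD8+ libraries. The part of Treg cells in the differences of Stat5a, Stat5b, Cish and Il2ra was not tested.

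Ratios of 2 genes within a library are free of scaling between libraries and were taken as a description. The counts of Il2ra, the chain that gives the IL-2 receptor its high affinity, were 0.573 to 0.742 times those of Il2rb in CD4+ WT, and 0.671 to 2.10 times in CD4+ Sirt2-/- libraries. In CD8+ libraries they were 0.0666 to 0.117 times in WT and 0.0654 to 0.134 times in Sirt2-/-. The ratio thus separated all CD4+ from all CD8+ libraries. The highest value, 2.10, came from CD4+ Sirt2-/- replicate 4, and the other three Sirt2-/- libraries had 0.671 to 0.730.

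Stat5a counts were 0.258 to 0.318 times those of Stat5b in CD4+ WT and 0.353 to 0.560 times in CD8+ WT libraries, without overlap, since Stat5b was lower in CD8+ cells by more than Stat5a. In Sirt2-/- libraries the ratios were 0.196 to 0.315 and 0.289 to 0.376 and overlapped. The value of 0.315 came from CD4+ Sirt2-/- replicate 4, a library with few genes detected. Without it the CD4+ Sirt2-/- ratios were 0.196 to 0.24, below all CD8+ Sirt2-/- ratios. The ratio of Il2rb to Il2rg was 15.8 to 23.8 in CD4+ WT and 8.72 to 15.6 in CD8+ WT libraries, and 6.14 to 17.3 and 9.18 to 14.5 in Sirt2-/- libraries. Of the 4 CD4+ Sirt2-/- libraries, 1 reached the WT range. The ratio of Jak3 to Jak1 was 0.0577 to 0.103 in every library but CD4+ WT replicate 1, where it was 0.206. The same-strand exon overlaps of Il2rg and Jak3 given above limit the level of the ratios that hold these genes.

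**Figure D3:**
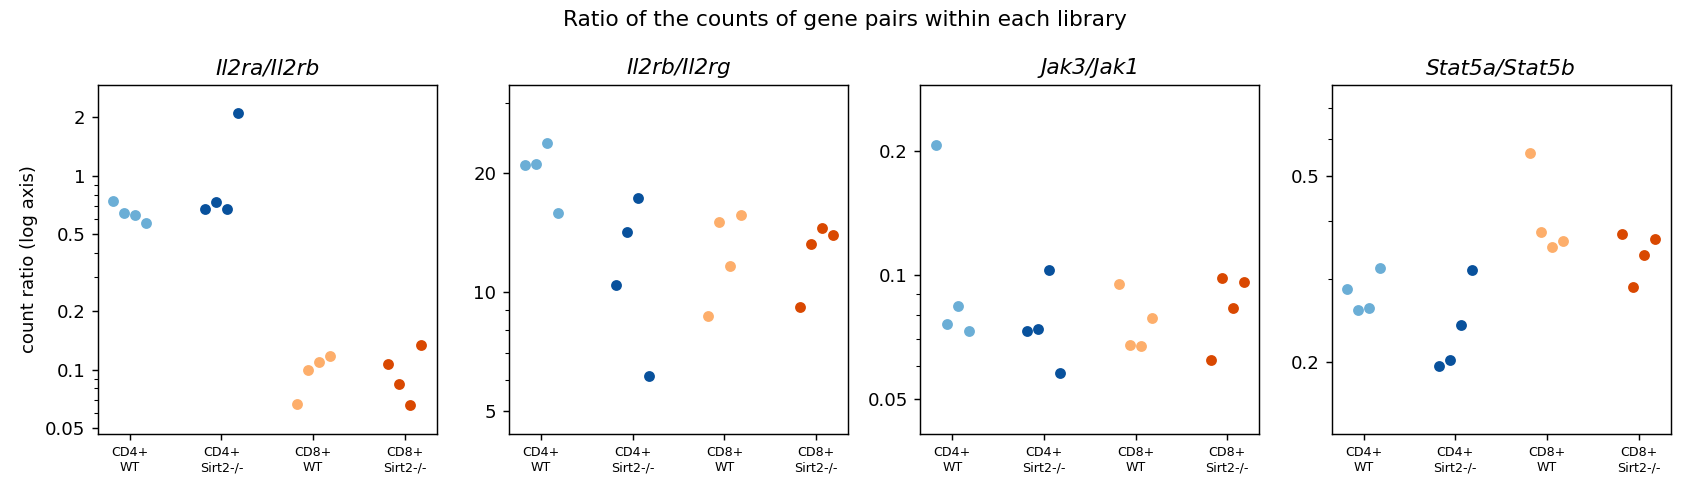
Ratio of the counts of 2 genes within each of the 16 libraries (vertical log axes), by group, with points from replicate 1 at the left to 4 at the right. Il2ra to Il2rb lies at 0.573 or above in all CD4+ and at 0.134 or below in all CD8+ libraries, and CD4+ WT replicate 1 stands alone at 0.206 for Jak3 to Jak1.

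The other genes of the pathway were taken from lists of 42 genes: 6 cytokines, 4 receptor chains, 7 Jak and Stat genes, 6 inhibitors, 7 adaptors and PI3K genes, and 12 target genes. None was called between genotypes, with 0 of 39 tested in CD4+ TILs (2 at an unadjusted p below 0.05) and 0 of 35 in CD8+ TILs (4). Il2ra was at 656 ± 69.7 CPM in CD4+ WT and 685 ± 261 CPM in CD4+ Sirt2-/- TILs (SD, n = 4, log2 fold change 0.06, SE 0.25). Il7r, the IL-7 receptor chain, was at 546 ± 114 and 635 ± 300 CPM (0.23, SE 0.32). Socs1, which inhibits JAK kinases directly, was at 74.7 ± 8.63 and 80 ± 16 CPM (0.11, SE 0.22), and in CD8+ TILs at 69.5 ± 15.3 and 95.5 ± 18.1 CPM (0.46, SE 0.17, unadjusted p = 0.0233, edgeR adjusted p = 0.986).

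The mRNAs of the cytokines themselves were scarce. Il2 had 0 to 44 counts in WT and 0 to 108 counts in Sirt2-/- libraries, at most 2.44 CPM, and Il15 at most 41 counts and 0.826 CPM. Il2 had no count in CD8+ WT replicates 1, 2 and 4, CD4+ WT replicate 1 and CD4+ Sirt2-/- replicate 4, and each count of 0 allows up to 3 counts.

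Between CD8+ and CD4+ TILs of WT mice 14 of 36 tested pathway genes were called, 5 higher and 9 lower in CD8+ cells, against 11.9% of all genes. In Sirt2-/- mice 6 of 38 were called, 3 higher and 3 lower, against 2.24% of all genes. The median log2 fold change was −0.23 and −0.24, beside −0.02 and 0.16 over all genes tested. Among receptors Il2ra was lower in CD8+ cells, at 91.7 ± 32.1 CPM in WT and 95.4 ± 38.3 CPM in Sirt2-/- (−2.91, SE 0.25, edgeR adjusted p = 4.95e-05, and −2.86, SE 0.35, adjusted p = 0.00666). Il7r was at 198 ± 55.4 and 206 ± 132 CPM there and passed the test in WT (−1.54, SE 0.22, adjusted p = 0.0011) and not in Sirt2-/- TILs (−1.64, SE 0.47, adjusted p = 0.146). Il21, a cytokine of helper cells, had 27 to 151 counts in CD4+ WT and 0 to 3 counts in CD8+ WT libraries, and its call (adjusted p = 0.0228) therefore rests on few reads.

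Of the inhibitors, Socs2, itself a STAT5-induced gene like Cish, was at 97.6 to 217 CPM in CD4+ and 4.57 to 14.7 CPM in CD8+ WT libraries (−3.83, SE 0.36, edgeR adjusted p = 7.83e-05), and differed in Sirt2-/- TILs by −3.35 (SE 0.33, adjusted p = 0.00284). Socs3 was lower (−0.78, SE 0.17) and Ptpn6, the phosphatase SHP-1, higher (1.11, SE 0.18) in CD8+ WT TILs. Jak2 was lower in both genotypes (−0.89, SE 0.12, and −1.16, SE 0.14) and Stat2 in WT (−0.90, SE 0.20). In Sirt2-/- TILs Socs3 (−0.76, SE 0.27), Ptpn6 (0.55, SE 0.37) and Stat2 (−0.43, SE 0.34) had the same signs and were not called. The PI3K subunit Pik3cd was higher in both (0.63, SE 0.16, and 0.83, SE 0.17).

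The target genes moved in both directions. Bcl2, which protects from apoptosis, was at 825 ± 46.3 CPM in CD8+ and 187 ± 43.7 CPM in CD4+ WT TILs (2.06, SE 0.18, edgeR adjusted p = 5.38e-05), and at 752 ± 27.1 and 165 ± 65.3 CPM in Sirt2-/- TILs (2.17, SE 0.32, adjusted p = 0.0127). Myc, which drives growth, was higher (1.63, SE 0.14) and the kinase gene Pim1 lower (−1.25, SE 0.12) in CD8+ WT TILs. Neither was called in Sirt2-/- TILs (2.14, SE 0.47, edgeR adjusted p = 0.0603, and −0.75, SE 0.21, adjusted p = 0.128). The cyclin gene Ccnd2 was higher in CD8+ Sirt2-/- TILs (0.60, SE 0.11, adjusted p = 0.0335). In WT it was not called, at the same log2 fold change (0.60, SE 0.30, adjusted p = 0.255). A call in 1 genotype alone does not show a difference between the genotypes.

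**Figure D4:**
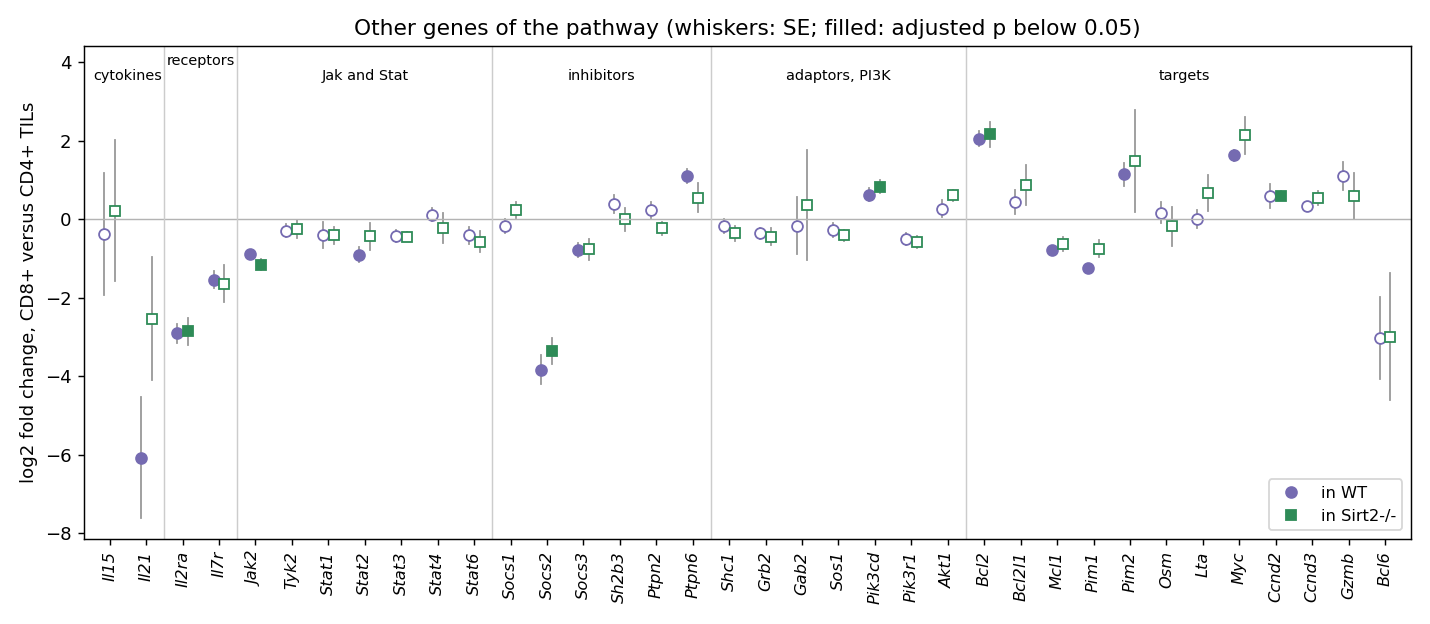
Log2 fold change between CD8+ and CD4+ TILs (vertical axis, whiskers 1 SE) of the 36 pathway genes tested in both genotypes, grouped by list, with circles for WT and squares for Sirt2-/- TILs, filled where the adjusted p was below 0.05. Il2ra, Jak2 and Socs2 are filled below 0 and Bcl2 and Pik3cd above 0 in both genotypes.

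Genes with the pattern most like that of Cish and Il2rb were sought among 17270 genes by the root mean square difference of log2 CPM, centered on each gene's mean, over the 16 libraries. Nearest to Cish were Wwp2 (0.136), Hnrnpll (0.178) and AU020206 (0.187), and nearest to Il2rb were Celf2 (0.198), Jund (0.201) and Arf6 (0.206). These 16 libraries share the groups and the same 3 libraries with few genes, so likeness describes these libraries only.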

How the data were processed

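The authors deposited 1 table of raw counts per gene and library, with no normalization. STAR, HTSeq and the mm10 build are named in the submitters' processing notes, with no versions, and the strand setting of the counting is not given in the sources used here. Libraries were made with a stranded total RNA kit for low input (Pico). All 55450 gene IDs were found in GENCODE vM21 (GRCm38), which gave positions and exon lengths. Counts were used as deposited. Genes were filtered with filterByExpr, scaled by TMM and tested with edgeR 4.0.16 (quasi-likelihood, R 4.3.3) within each comparison of 4 against 4 libraries, and over all 16 libraries for the interaction. P-values were Benjamini-Hochberg adjusted over all genes tested, with a threshold of 0.05. SE and 95% intervals come from the same fit. Alternatives were DESeq2 1.42.0, limma-voom (limma 3.58.1) with quality weights, DESeq2 size factors, no filter, at least 10 counts in every library, 1 model of all libraries, a replicate block, CPM by total count, leaving out each library, and leaving out libraries with under 15000 genes detected. The scripts were tested on simulated data.

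The members and lists were chosen with earlier results of these data known. Named were all members, the marker checks, the called genes of each pathway list (at most the 3 with the largest absolute log2 fold change), Il2ra, Il7r, Il2, Il15 and Socs1, and the 3 genes most like Cish and Il2rb. The CPM values are counts divided by the TMM-scaled library size, and log2 CPM used a prior count of 2. Promoter sequences come from RefSeq (GRCm38.p6). Intervals for counts of 0 cover counting error only.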

Additional observations from a re-analysis of the deposited data

Results flagged for a closer look

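In 80 groups of 4 values the value farthest from the others was compared with the range of its group (Dixon's 95% criterion), and 15 values stood apart, where chance gives about 4. CD4+ WT replicate 1, a library with few genes detected, stood apart with Jak3 at 175 CPM, Stat5b at 221 CPM, Cish at 451 CPM and a Jak3 to Jak1 ratio of 0.206. It also had summed melanoma markers of 96.9 CPM, and the part of melanoma cells in these values was not tested. CD4+ Sirt2-/- replicate 4 stood apart with 8169 genes detected and an Il2ra to Il2rb ratio of 2.1. CD8+ WT replicate 1 stood apart with 14411 genes detected and a Stat5a to Stat5b ratio of 0.56. CD8+ Sirt2-/- replicate 4 had Il4ra at 593 CPM and Il2ra at 152 CPM, and CD4+ WT replicate 4 had Il4ra at 326 CPM. Il7r was at 404 CPM in CD8+ Sirt2-/- replicate 1. Il2 stood apart at 2.44 CPM in CD4+ Sirt2-/- replicate 3, 0.427 CPM in CD8+ Sirt2-/- replicate 1 and 0.109 CPM in CD8+ WT replicate 3, all from few counts.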

How the results depend on the processing

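Genes called over all genes moved with the method, and the cause was not tested. Between genotypes in CD4+ TILs (0 by edgeR) DESeq2 called 7, limma-voom 4 and the fit without libraries of few genes 6. In CD8+ TILs (1 by edgeR) the counts were 28 by DESeq2, 5 by limma-voom, 5 with no filter, 4 with the replicate block, 7 without libraries of few genes and 0 to 7 when 1 library was left out. For CD8+ against CD4+ WT TILs (1765 genes, 3 members) they were 2651 by DESeq2, 5504 by limma-voom (7 members), 811 in 1 model of all libraries, 4394 without libraries of few genes and 1022 to 2766 with 1 library left out (1 to 5 members). In Sirt2-/- TILs (354 genes, 1 member) they were 1339 by DESeq2 (2 members), 4481 by limma-voom (5), 905 with at least 10 counts (2), 781 in 1 model (2), 108 with the block, 4250 without libraries of few genes (4), and 111 to 4250 with 1 library left out (1 to 4). For the interaction (0) DESeq2 called 2.

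The log2 fold changes that changed sign were not called by edgeR with all libraries in, although limma-voom called Cish in Sirt2-/- TILs. In the CD4+ genotype comparison these were Il21r (0.235 by limma-voom, 0.196 without libraries of few genes, −0.337 to 0.083 with 1 library left out), Jak3 (0.052 and 0.099 in the first 2 settings), Il15ra (−0.458 with the block, −0.19 to 0.535 with 1 left out), Jak1 (−0.041 to 0.144) and Stat5a (−0.123 to 0.125). In CD8+ TILs they were Il2rb (−0.027 by limma-voom), Il15ra (0.082 by limma-voom, 0.084 without libraries of few genes, −0.131 to 0.084) and Jak3 (−0.004 to 0.145). For CD8+ against CD4+ TILs they were Jak3 in WT (−0.445 to 0.04), and in Sirt2-/- Jak1 (−0.001 by DESeq2 and with its size factors, −0.052 without libraries of few genes, −0.074 to 0.076), Jak3 (−0.034, and −0.034 to 0.244) and Cish (−0.336 to 0.062). For the interaction they were Il21r (−0.081 by limma-voom, −0.008 without libraries of few genes), Stat5a (0.023 and 0.19, and −0.198 to 0.055), Il4ra (−0.012 with the block, −0.437 to 0.297), Il15ra (0.387 with the block, −0.581 to 0.147) and Stat5b (−0.163 to 0.044).

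Whether libraries of the same number come from the same mouse is not given in the sources used here. Deviations of same-numbered libraries correlated at 0.07 to 0.12 between CD8+ and CD4+ WT TILs, where each library correlated best with its own number, at −0.01 to 0.13 in Sirt2-/- TILs and at −0.07 to 0.08 between genotypes. In Sirt2-/- TILs only replicate 1 correlated best with its own number. The WT replicate 1 libraries of both cell types were among those with few genes detected. Whether the WT values reflect pairing was not tested. The numbers were not used as pairs in the main tests, since the labels do not say that a number marks a mouse or a batch. With the replicate block 0 members were called between genotypes, 2 between cell types in WT and 1 in Sirt2-/- TILs.

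With 4 libraries a group, 3 of the 16 with few genes, intervals of single members were wide, and a member that was not called is not shown to be alike. Scaling by total count moved no group mean of a member by more than 1 SD.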
